A study of Homo sapiens with 9 samples.

Results

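The unfolded protein response and the ATF4 stress response were followed through 34 genes, picked by symbol for their known roles, of the 26364 gene rows in the count table. By role they comprised 3 stress sensors, 7 transcription factors, 6 enzymes of serine, one-carbon and asparagine synthesis, 2 amino acid transporters, 6 other ATF4 targets of the stress response, and 10 chaperones and folding or degradation factors of the endoplasmic reticulum (ER). All 34 genes were in the table, and all 34 passed the filter on low counts in every comparison, so that none had to be set aside.

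RNA-seq counts were available for 9 libraries of A549, a line of human lung adenocarcinoma cells. The 2 control libraries came from cells labelled WT, and the 2 *LA* libraries from cells edited with guides sgLOC388942 and sgALK, which join an intergenic region near *LOC388942* to *ALK*. The same 2 edits were carried by 3 libraries that also received a scramble guide (sgScr) and by 2 libraries that also received a guide against *FOS* (sg*FOS*). The fusion cells were made from A549-Cas9 cells infected with lentivirus and were grown as monoclonal strains, so that the fusion cannot be told apart from what sets a clone apart. The labels give neither the clone nor the *FOS* guide of a library. Nothing in them says that the replicates were separate cultures, and p-values then measure only the spread between these libraries, which may be technical.

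Cells sense unfolded protein in the ER through PERK (encoded by *EIF2AK3*), IRE1 (*ERN1*) and ATF6. PERK slows translation, and this favors the translation of the transcription factor ATF4, which drives genes for making and importing amino acids and, with CHOP (*DDIT3*), genes of prolonged stress. IRE1 splices the mRNA of *XBP1*, and XBP1 and the cleaved ATF6 raise ER chaperones and the machinery that removes misfolded protein. ATF4 is also reached from amino acid shortage, heme loss and viral RNA through other kinases, so that its amino acid genes can move without the chaperones. Counts per gene do not measure the splicing of *XBP1*, the cleavage of ATF6 or the translation of ATF4.

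Sequence elements that ATF4, ATF6 and XBP1 are known to bind were looked for in the promoters. RefSeq promoter windows of 300 bases (250 before the start site and 50 after it, GRCh38.p14) were at hand for 31 of the 34 genes, all but *NUPR1*, *SHMT2* and *PSPH*, and were searched on both strands. The CARE element of ATF4 (TGATGNAA) was found for 5 of the 31 genes (16.1%), against 4.46% of the 27305 genes with a window. These 5 are shown because they are all the matches, and they lie in genes of 5 different roles. Capitals mark the fixed bases of the motif, and each element is read on the strand that carries it.
*ASNS* chr7:97872463-97872482, minus strand: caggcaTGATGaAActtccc
*SLC3A2* chr11:62881730-62881748, minus strand: ggagcTGATGtAAggagtc
*CHAC1* chr15:40953256-40953275, minus strand: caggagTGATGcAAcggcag
*CEBPG* chr19:33374065-33374084, plus strand: ggcgtcTGATGcAAcctgcc
*HERPUD1* chr16:56931960-56931979, minus strand: acgggcTGATGcAAcccgcc

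The ER stress element (ERSE) is CCAAT and CCACG with 9 bases between them. It was found for 4 of the 10 ER chaperone and folding genes and for *XBP1*, together 5 of 31 genes (16.1%), against 0.0916% of all genes with a window. Again the capitals mark the fixed bases. *HSP90B1* held a second match on the minus strand (chr12:103930315-103930345), which is not shown.
*HSPA5* chr9:125241385-125241415, minus strand: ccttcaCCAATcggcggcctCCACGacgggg
*HSP90B1* chr12:103930210-103930240, plus strand: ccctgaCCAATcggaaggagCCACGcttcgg
*CALR* chr19:12938378-12938408, minus strand: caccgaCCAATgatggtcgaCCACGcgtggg
*CRELD2* chr22:49918548-49918578, minus strand: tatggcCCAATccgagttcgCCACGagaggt
*XBP1* chr22:28800597-28800627, minus strand: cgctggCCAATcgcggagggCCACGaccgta

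A second form, ERSE-II (ATTGG and CCACG with 1 base between them), was found for *HYOU1*, *HERPUD1* and *SDF2L1*, 3 of 31 genes (9.68%), against 0.0696% of all genes. In *HYOU1* it lay both 185 and 79 bases before the start site. A further element, UPRE (TGACGTGG), was found for 1 of 31 genes (3.23%), *HYOU1*, against 0.927% of all genes. *HERPUD1*, which encodes a membrane protein of ER-associated degradation, was the only member whose window held both a CARE and an ERSE-II, and its window is shown whole. It runs 5′ to 3′ on the plus strand of chr16:56931892-56932191, with the CARE (here as its reverse complement) and then the ERSE-II in capitals.
*HERPUD1*: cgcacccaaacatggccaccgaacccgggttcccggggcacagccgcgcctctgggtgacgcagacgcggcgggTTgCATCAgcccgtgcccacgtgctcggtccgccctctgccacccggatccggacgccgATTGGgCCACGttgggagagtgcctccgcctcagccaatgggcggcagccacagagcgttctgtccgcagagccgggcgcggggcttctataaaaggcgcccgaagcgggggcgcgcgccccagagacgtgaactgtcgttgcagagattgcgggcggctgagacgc

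A loose form of the AP-1 site of FOS and JUN dimers, with any middle base (TGANTCA), was searched for as well. It was found for 4 of the 31 genes (12.9%), *HSPA5*, *SLC3A2*, *DDIT3* and *ATF5*, against 9.37% of all genes. The letters were TGAATCA in *HSPA5* and TGACTCA in *SLC3A2*, *DDIT3* and *ATF5*. A match in letters is a description and no evidence of binding, and a window without a match says only that these letters are not in its 300 bases. Because the genes were picked for their known roles in these responses, their shares beside those of all genes are no test of enrichment.

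Total counts ranged from 14507228 to 20456341. Levels are given as CPM, counts scaled to the library size after TMM normalization, unless they are called counts. The epithelial genes *KRT8*, *KRT18* and *KRT7* were at 1646.3 CPM or more in every library. *NQO1* and *AKR1C1*, high in A549, were at 661 CPM or more. *KRT19* (32.6 to 174 CPM) was lower, and *EPCAM* was low (3.01 to 13.1 CPM). *PTPRC* and *CD3E* of leukocytes had no count, and *PECAM1* and *CDH5* of endothelium were at 0.894 CPM or less. The fibroblast genes *COL1A1* and *COL3A1* were at 6.37 to 17.5 CPM and 0.246 to 1.40 CPM. *MYH11* of smooth muscle was at 0.976 to 4.33 CPM. *FOS* was at 10.8 and 9.14 CPM in control, 334 and 92.8 CPM in *LA*, 196 to 203 CPM in sgScr and 68.3 and 74.1 CPM in sg*FOS*. *ALK* had 0 counts in both control libraries and 2 and 15 counts in *LA*, 1 to 4 counts in sgScr, and 2 and 0 counts in sg*FOS*. Libraries of a group were unequally alike: the chi-square statistic of the counts per degree of freedom was 127 between the control libraries and 60.3 between the *LA* libraries, but only 1.73 to 2.66 within sgScr and sg*FOS*. Across genes, the log2 fold change of *LA* against control rose with transcript length (Spearman rho 0.579 over 13982 genes, which share the same 4 libraries), and that between the 2 control libraries did too (rho 0.345). Values against control were therefore also corrected for length and GC content, and the plot of fold changes against control shows every corrected value, of which the text gives a part. In bulk RNA, a smaller share of cells expressing a gene and less RNA per cell cannot be told apart.

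**Figure D1:**
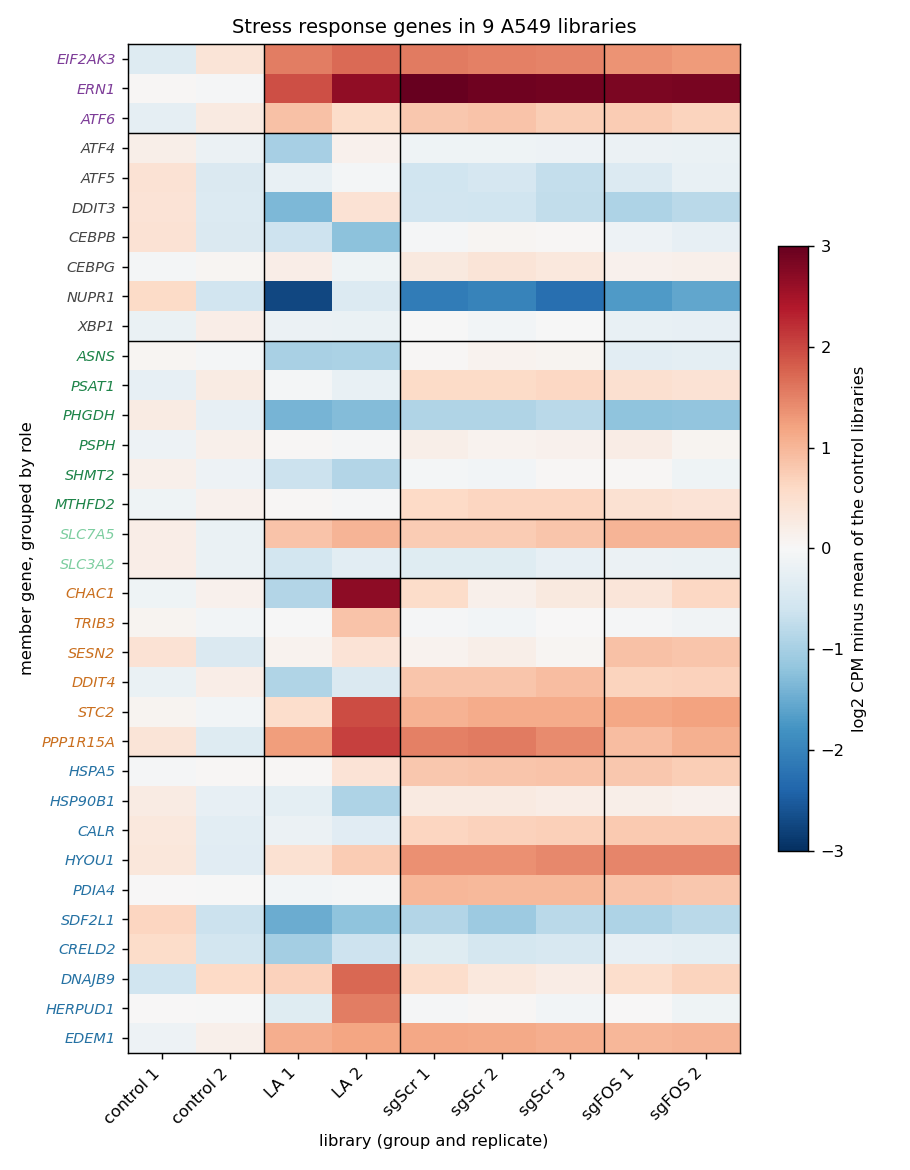
Each row is a gene (name colored by role) and each column a library, and the color is the log2 of CPM + 0.5 minus the mean of the control libraries. *ERN1*, *EIF2AK3* and *PPP1R15A* are higher in all 7 fusion libraries, whereas *CHAC1*, *HERPUD1* and *DNAJB9* are highest in *LA* replicate 2.

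Which of these genes differ between cells with and without the fusion was asked first with *LA* against control. Of the 34 genes, 4 rose and 2 fell (17.6%), where 19.5% of the 14425 genes tested were called, 9.57% higher and 9.94% lower. The median log2 fold change over the 34 genes was -0.06, against 0.04 over all genes. Scaled by library size alone, 6 rose and none of the 2 decreases was called (unadjusted p under 0.05 for 2 lower genes), while the median of all genes moved to 0.33. Without *LA* replicate 2 edgeR's test called 0 higher and 1 lower (unadjusted p under 0.05 for 2 higher genes), without *LA* replicate 1 it called 2 and 0 (also 0 lower at an unadjusted p under 0.05), without control replicate 1 it called 2 and 1, and without control replicate 2 it called 5 and 7. The shares of all genes called in these other fits are not given, so nothing is read from the size of their counts. In the main fit the genes that rose were the sensors *ERN1* and *EIF2AK3* and the ATF4 targets *PPP1R15A* and *STC2*. The genes that fell were *PHGDH*, the first enzyme of serine synthesis, and *SDF2L1*, a cofactor of the chaperone BiP.

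The sensor *ERN1* encodes IRE1, the kinase and endonuclease that splices *XBP1*. It was at 1.81 and 1.71 CPM in control (28 and 29 counts), at 8.10 and 13.9 CPM in *LA*, at 16.3 to 17.3 CPM in sgScr and at 15.5 and 15.8 CPM in sg*FOS*. Every fusion library was above both control libraries. *ERN1* was 6.10-fold higher in *LA* than in control (log2 2.61, SE 0.57, adjusted p = 0.00332 in edgeR's quasi-likelihood test). With length and GC content corrected for, the value was 1.82 in log2 (adjusted p = 0.0286), and without *LA* replicate 2 it was 2.20 (adjusted p = 0.121).

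*EIF2AK3*, which encodes PERK, was at 5.69 and 10.0 CPM in control and at 22.7 and 25.6 CPM in *LA*. It was between 19.1 and 23.4 CPM in the other 5 fusion libraries, so that the control libraries were the lowest of all 9. The log2 fold change in *LA* against control was 1.59 (SE 0.46, adjusted p = 0.0193), and the corrected log2 value was 1.15 (adjusted p = 0.0448). The call was lost without *LA* replicate 1 (adjusted p = 0.166), *LA* replicate 2 (0.232) or control replicate 1 (0.0825). *ATF6*, the sensor that is cleaved to a transcription factor, was at 28.2 and 41.6 CPM in control and 63.2 and 50.1 CPM in *LA*. Its log2 fold change of 0.67 (SE 0.41, adjusted p = 0.255) was not called, and it was -0.19 after correction. The 3 sensor transcripts are long, at 7895 bp for *ERN1*, 7470 bp for *ATF6* and 4536 bp for *EIF2AK3*, against a median of 3198 bp over the genes tested.

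Of the 6 ATF4 targets of the stress response, 2 rose. *PPP1R15A* encodes GADD34, the phosphatase subunit that restores translation after PERK has acted. It was at 39.5 and 22.7 CPM in control and at 72.0 and 126 CPM in *LA*, with no overlap, and was 3.13-fold higher (log2 1.65, SE 0.43, adjusted p = 0.00999). The corrected log2 value was larger, at 2.11 (adjusted p = 0.00321). Without *LA* replicate 1 the adjusted p was 0.0727 and without *LA* replicate 2 it was 0.347.

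*STC2*, a secreted glycoprotein induced by ER stress, was at 16.7 and 15.0 CPM in control and at 23.1 and 62.9 CPM in *LA* (log2 1.40, SE 0.47, adjusted p = 0.0362). This call was lost after the correction (log2 1.04, adjusted p = 0.119) and whichever of the 4 libraries was left out (adjusted p 0.0689 to 0.733). The other 4 were not called. *CHAC1*, a glutathione-degrading enzyme, had the largest log2 fold change of the 6 (1.95, SE 0.76, adjusted p = 0.0716), and its *LA* libraries lay on either side of the control libraries. *TRIB3*, a pseudokinase that feeds back on ATF4, *SESN2* and *DDIT4*, inhibitors of mTORC1 signaling, had log2 fold changes of 0.45, 0.19 and -0.70.

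Of the 8 genes for amino acid synthesis and transport, 1 was called in *LA*, and it fell. Unadjusted p was under 0.05 for 2 others, *ASNS* (0.018) and *SLC7A5* (0.0472). *PHGDH* was at 85.8 and 60.3 CPM in control and at 26.9 and 29.1 CPM in *LA*, which is 2.65-fold lower (log2 -1.41, SE 0.41, adjusted p = 0.0183). After correction it was -0.73 (adjusted p = 0.0746), and it was not called without *LA* replicate 1 (adjusted p = 0.312) or *LA* replicate 2 (0.319). *ASNS*, asparagine synthetase and a leading ATF4 target, was at 106 and 97.6 CPM in control and at 51.2 and 52.7 CPM in *LA*. The groups did not overlap, as for 63.8% of all genes tested, but the log2 fold change of -0.99 (SE 0.39) missed the threshold (adjusted p = 0.0741). By other settings *ASNS* was lower and past it, namely by DESeq2 (adjusted p = 0.0313), with all 9 libraries in one fit (0.000995) and without control replicate 2 (0.0199). The mitochondrial one-carbon enzymes *SHMT2* and *MTHFD2* had log2 fold changes of -0.80 and -0.03, and *PSAT1* and *PSPH*, which complete serine synthesis after *PHGDH*, had -0.18 and -0.03. The transporter pair *SLC7A5* and *SLC3A2*, the light and heavy chains of the LAT1 exchanger, had 0.91 and -0.47. After correction *PSAT1*, *PSPH* and *SLC3A2* turned positive, at 0.03, 0.36 and 0.18. For the 8 together the median was -0.32, and -0.15 after correction.

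None of the 7 transcription factors was called in *LA* against control, where 2 had an unadjusted p under 0.05, *CEBPB* (0.0292) and *NUPR1* (0.0276). *ATF4* was at 314 and 242 CPM in control and at 139 and 301 CPM in *LA* (log2 -0.37, SE 0.43, adjusted p = 0.579). *DDIT3* was at 12.6 and 6.84 CPM in control and at 3.38 and 12.7 CPM in *LA* (log2 -0.30, SE 0.56, adjusted p = 0.749). For both genes *LA* replicate 1 was the lowest of the 4 libraries, and the corrected values were positive (0.44 and 0.90). *XBP1*, at 64.0 and 85.8 CPM in control and 65.2 and 64.4 CPM in *LA*, had a log2 fold change of -0.24 (SE 0.39, adjusted p = 0.713), which was 0.26 after correction. *CEBPB*, a bZIP partner of ATF4 and CHOP, *CEBPG*, a further partner of ATF4, *ATF5*, its close relative, and *NUPR1*, a small stress-induced coregulator, had -0.98, 0.02, -0.22 and -1.33, and after correction 0.05, -0.35, 0.46 and -1.91.

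Of the 10 ER chaperone and folding genes, 1 was called in *LA*, and it fell. Unadjusted p was under 0.05 for 3 others, *CRELD2* (log2 -0.96), *DNAJB9* (1.17) and *EDEM1* (1.10). *HSPA5*, which encodes BiP, the main ER chaperone, was at 577 and 610 CPM in control and at 606 and 785 CPM in *LA* (log2 0.20, SE 0.41, adjusted p = 0.771). *SDF2L1* was at 91.4 and 37.7 CPM in control and at 20.6 and 25.0 CPM in *LA* (log2 -1.52, SE 0.45, adjusted p = 0.0201). Its transcript is short (825 bp), and after correction the log2 value was 0.17 (adjusted p = 0.693). *HSP90B1* and *CALR*, abundant chaperones of the ER lumen, *HYOU1*, the nucleotide exchange factor of BiP, *PDIA4*, a disulfide isomerase, and *HERPUD1* had values of -0.61, -0.30, 0.56, -0.09 and 0.86. After correction *EDEM1* was at 0.39 and *HSPA5* at -0.13, and *CRELD2* (0.11), *CALR* (0.25) and *PDIA4* (0.01) turned positive. Over the 10 genes the median was 0.06.

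**Figure D2:**
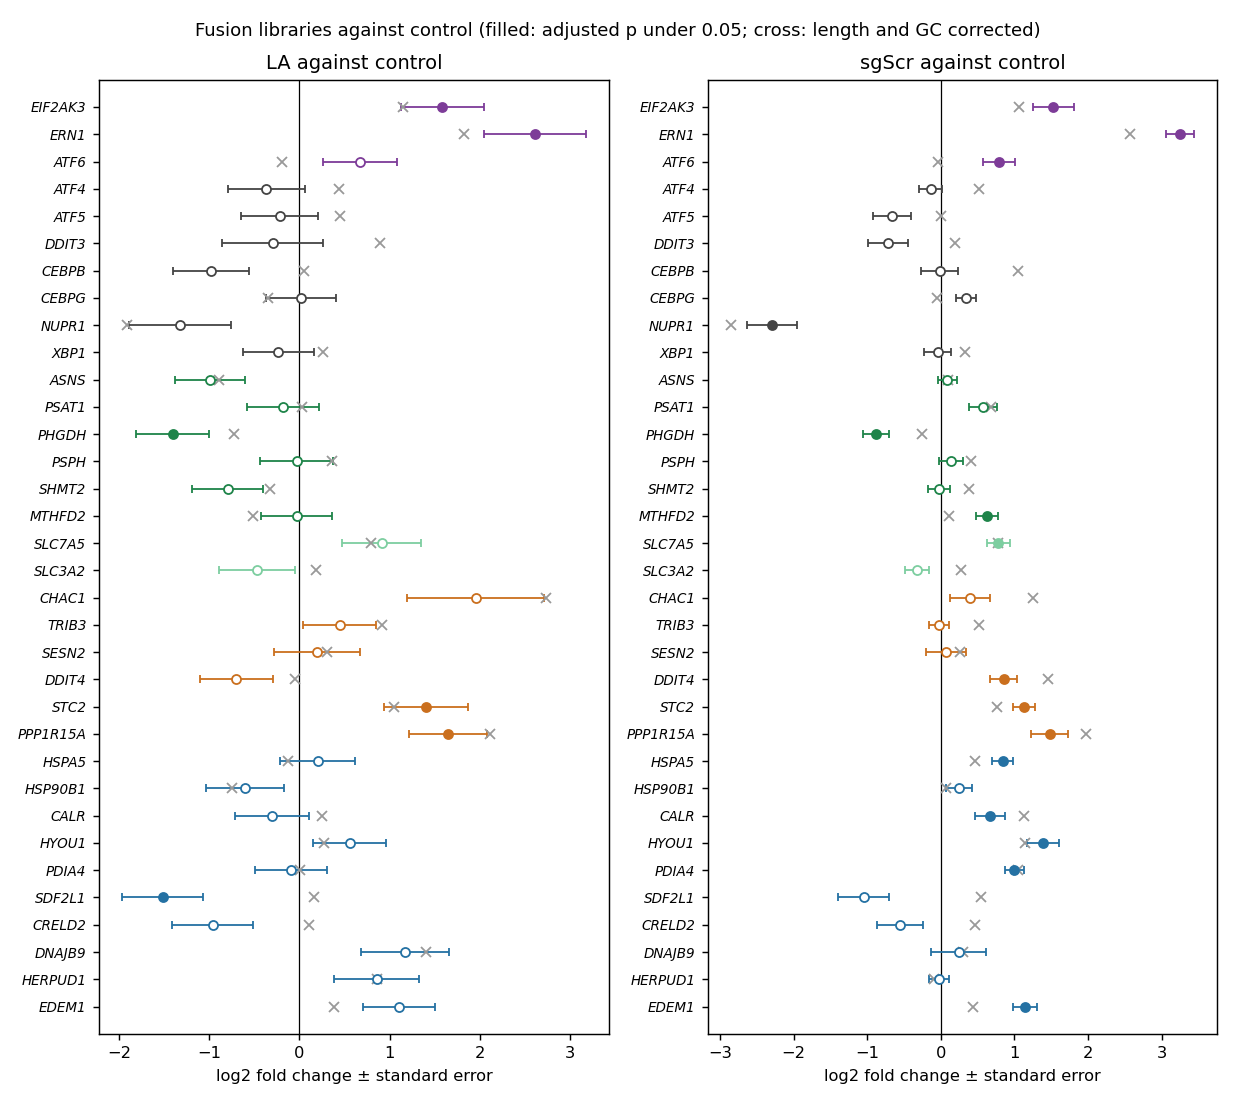
The log2 fold change of each gene (points, with bars of 1 standard error) in *LA* against control (left) and sgScr against control (right). Filled points have an adjusted p under 0.05, and crosses are the values after correction for length and GC content, which lie at 0.17 for *SDF2L1* in the left panel against an uncorrected value of -1.52.

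The 7 fusion libraries of all kinds were then set against the control libraries one by one. For 8 genes all 7 were above both control libraries, and these were the 3 sensors together with *SLC7A5*, *STC2*, *PPP1R15A*, *HYOU1* and *EDEM1*, a lectin-like factor that passes glycoproteins to degradation. For 2 genes, *PHGDH* and *SDF2L1*, all 7 were below. Over the 14425 genes tested, 24.6% had all 7 above and 22.6% all 7 below. *SLC7A5* reached 2294.5 to 2775.1 CPM in the fusion libraries, against 1551.8 and 1196 CPM in control.

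The sgScr libraries differ from control by the scramble guide as well as by the fusion. Any difference in clone, culture or library run cannot be told apart from these. This comparison uses the same 2 control libraries as *LA* against control. Here 13 genes rose and 2 fell (44.1%), where 41.5% of 14482 genes were called, 19.8% higher and 21.7% lower. The largest increases were in *ERN1* (log2 3.25, SE 0.19, adjusted p = 0.00404), *EIF2AK3* (1.53, SE 0.28, adjusted p = 0.0108), *PPP1R15A* (1.48, SE 0.25, adjusted p = 0.00938), *HYOU1* (1.38, SE 0.22, adjusted p = 0.0084) and *EDEM1* (1.15, SE 0.16, adjusted p = 0.00696). *STC2*, *PDIA4*, *DDIT4*, *HSPA5*, *ATF6*, *SLC7A5*, *CALR* and *MTHFD2* rose by 1.13 to 0.63 in log2. The genes that fell were *NUPR1* (-2.30, SE 0.34, adjusted p = 0.00735) and *PHGDH* (-0.88, SE 0.18, adjusted p = 0.0141).

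By role, all 3 sensors, 5 of 10 ER chaperone and folding genes, 3 of 6 stress targets and 2 of 8 amino acid genes rose in sgScr against control. *HSPA5* was at 1033.5 to 1075.4 CPM in sgScr, above 577 and 610 CPM in control (log2 0.84, SE 0.14, adjusted p = 0.00898). *ASNS* was at 105 to 109 CPM, against 106 and 97.6 CPM in control (log2 0.09, SE 0.13, adjusted p = 0.615). *ATF4* (-0.14, SE 0.15, adjusted p = 0.486), *DDIT3* (-0.72, SE 0.28, adjusted p = 0.0806) and *XBP1* (-0.04, SE 0.18, adjusted p = 0.858) were not called. After correction *ERN1* was at 2.58 (adjusted p = 0.0012), *EDEM1* at 0.44 (0.0112), *HSPA5* at 0.47 (0.0166), *CALR* at 1.12 (0.00242) and *DDIT4* at 1.45 (0.0113). The corrected value of *ATF6* was -0.04, that of *MTHFD2* 0.11 (adjusted p = 0.486) and that of *PHGDH* -0.26 (adjusted p = 0.0569). *ATF4* was at 0.52 after correction (adjusted p = 0.00585). In the corrected fit 20 of these genes were called higher and 1 lower. The share of all genes called in that fit is not given, so nothing is read from this count. Without sgScr replicate 1, 2 or 3, 1, 0 and 0 genes were called higher and none lower (unadjusted p under 0.05 for 2 lower genes each); without replicate 2 or 3, edgeR's test still gave 12 genes with a higher value and an unadjusted p under 0.05. Without control replicate 1 or 2 a lone control library is left, which is taken to vary like the sgScr libraries. Nothing is read from the number of calls in these fits. DESeq2 called 14 higher and 3 lower with all 5 libraries, and its share over all genes is not given either.

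**Figure D3:**
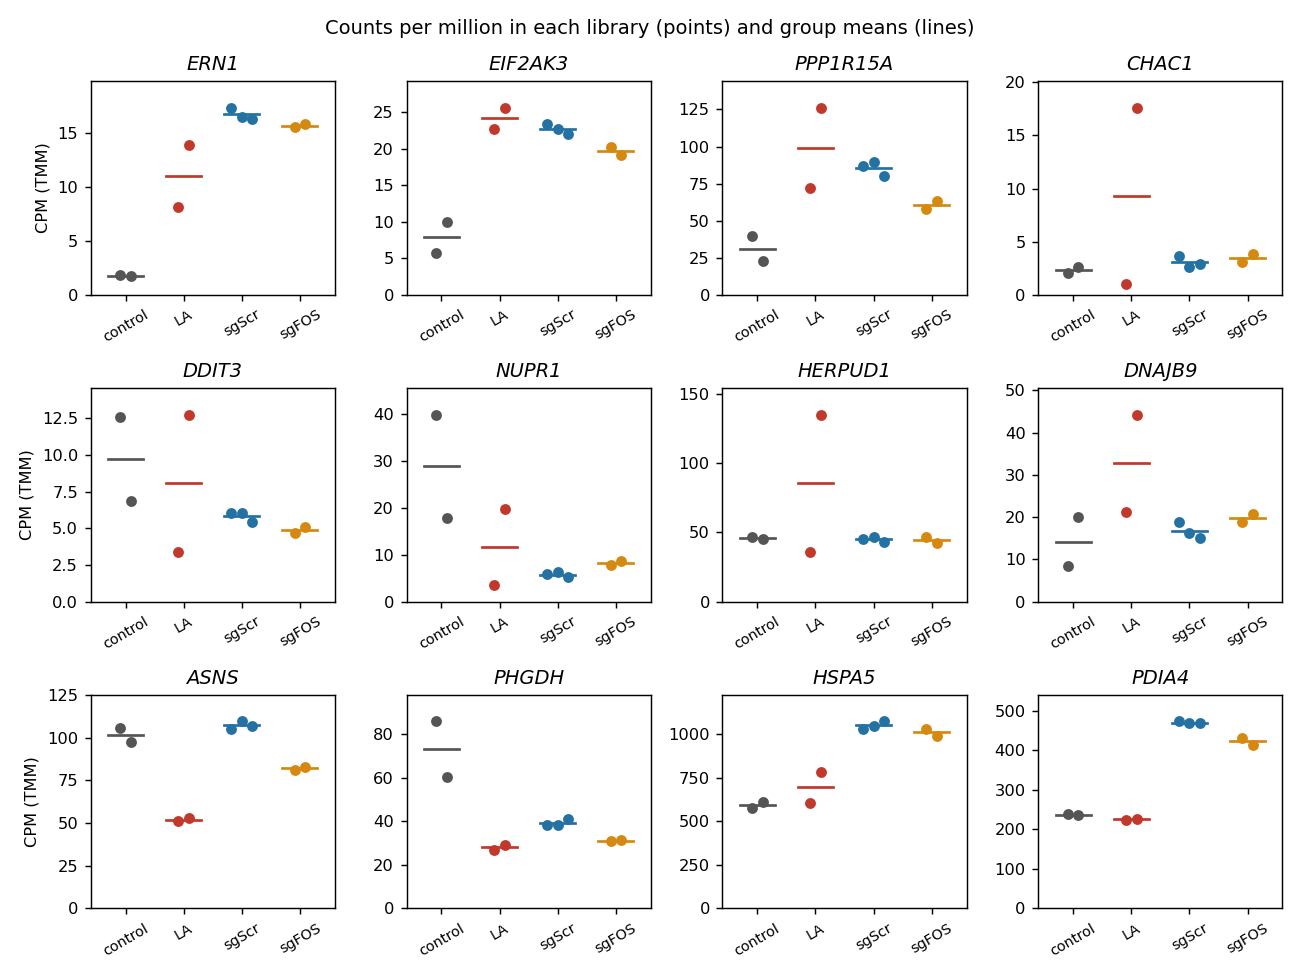
CPM of 12 of the genes in each library (points) with the group mean (line), each axis starting at 0. The sgScr and sg*FOS* points lie close together, *ERN1* is below 2 CPM in both control libraries, and *CHAC1*, *NUPR1*, *HERPUD1* and *DDIT3* differ widely between the *LA* libraries.

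The *LA* libraries differed from each other in these genes. In *LA* replicate 2, 7 of the 34 genes (20.6%) were more than 2-fold higher than in *LA* replicate 1 (CPM + 0.5), where 5.94% of 14849 genes were, and 0 were more than 2-fold lower, where 1.9% of genes were. Each side is a single library, so that no test can be given. *CHAC1* had 17 and 315 counts (1.04 and 17.6 CPM), *NUPR1* 58 and 354 counts, *HERPUD1* 584 and 2415 counts and *DDIT3* 55 and 228 counts. The log2 differences of these 4 were 3.55, 2.32, 1.90 and 1.77. *STC2* (1.43), *ATF4* (1.12) and *DNAJB9* (1.04), a BiP cochaperone that restrains IRE1, made up the 7. The control libraries differed too. In control replicate 2, 1 gene (*DNAJB9*) was more than 2-fold higher than in control replicate 1, where 7.89% of all genes were. More than 2-fold lower were 3 genes (*SDF2L1*, *NUPR1* and *CRELD2*), where 9.76% of all genes were. Past 1.5-fold in either direction there were 12 of the 34 genes in the *LA* pair and 12 in the control pair. The share of all genes past this size is not given, so nothing is read from these counts.

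Among the 8 genes of amino acid synthesis and transport, 0 differed by more than 2-fold between the *LA* libraries, and with 5.94% and 1.9% of all genes past this size nothing is read from that count. *ASNS* had 834 and 943 counts, a log2 difference of 0.04, and the 6 enzymes ranged from -0.23 to 0.11. *PDIA4* (0.02) and *XBP1* (-0.02) were alike too, *HSPA5* was higher by 0.37, and *HSP90B1* was lower by 0.63. *FOS* went the other way, with 334 CPM in *LA* replicate 1 and 92.8 CPM in *LA* replicate 2. Its part in these differences was not tested.

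**Figure D4:**
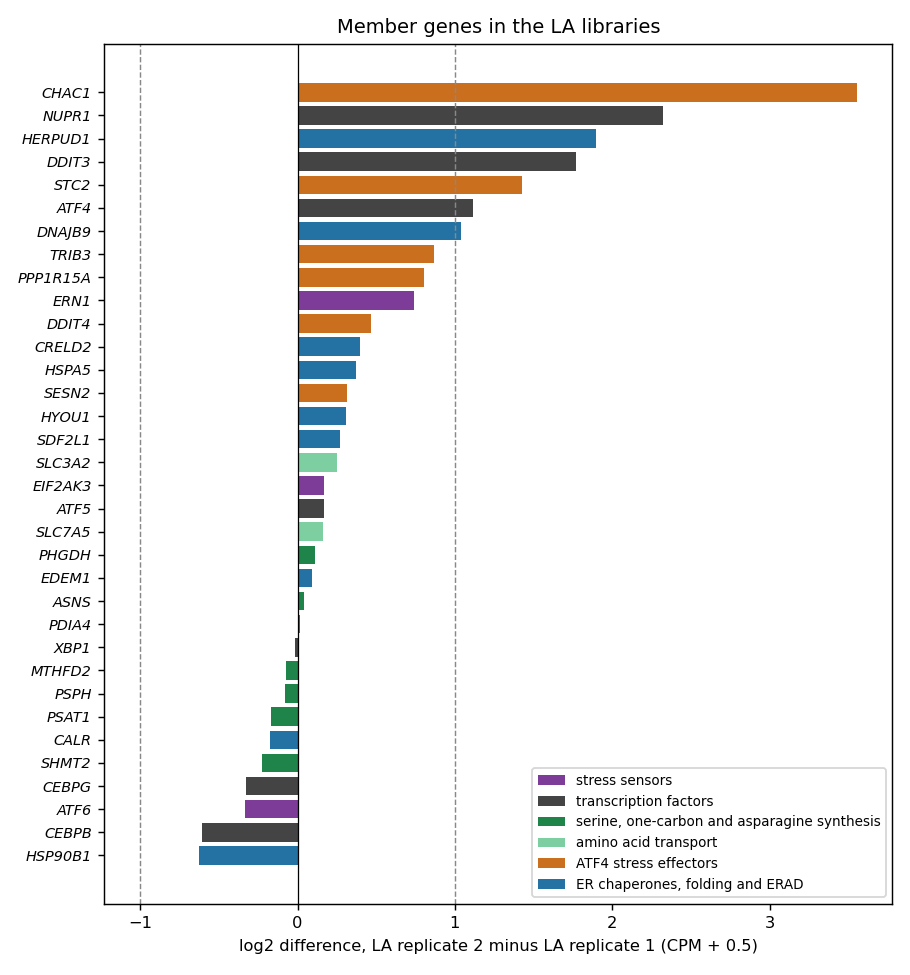
The log2 difference of CPM + 0.5 between *LA* replicate 2 and *LA* replicate 1 for each of the 34 genes, sorted and colored by role, with dashed lines at 2-fold in either direction. *CHAC1*, *NUPR1*, *HERPUD1*, *DDIT3*, *STC2*, *ATF4* and *DNAJB9* pass the upper line, none passes the lower line, and the enzymes of amino acid synthesis lie between -0.23 and 0.11.

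Fusion cells with and without a scramble guide were compared as sgScr against *LA*. Their clones and culture are not given, so that the guide cannot be told apart from differences in clone, culture or library run. Of the 34 genes, 12 rose and 1 fell (38.2%), where 22.9% of 14521 genes were called, 10.6% higher and 12.3% lower. The higher calls were in amino acid synthesis and in the ER lumen: 5 of the 6 enzymes and 5 of the 10 chaperone and folding genes, together with *DDIT4* and *CEBPB*. The 2 transporters and the 3 sensors were not called. Among the sensors *ERN1* had a log2 fold change of 0.58 (SE 0.23, unadjusted p = 0.045 in edgeR's test). With length and GC content corrected for, it was 0.72 and was called (adjusted p = 0.0416). *EIF2AK3* (-0.113) and *ATF6* (0.065) were not called either way.

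*ASNS* was at 105 to 109 CPM in sgScr and at 51.2 and 52.7 CPM in *LA*, 2.03-fold higher (log2 1.02, SE 0.08, adjusted p = 0.00198). *PSAT1* (0.70), *SHMT2* (0.72), *MTHFD2* (0.60) and *PHGDH* (0.47) rose with it, and *PSPH* had a log2 fold change of 0.11 (adjusted p = 0.376). Whichever sgScr library was left out, the call of *ASNS* held, and those of *PSAT1*, *SHMT2*, *MTHFD2* and *PHGDH* were lost. Over the 8 amino acid genes the median was 0.53, against -0.02 over all genes tested. *PHGDH* was at 38.0 to 41.2 CPM in sgScr, still below both control libraries.

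Among the ER genes, *PDIA4* was at 468 to 473 CPM in sgScr and at 225 and 227 CPM in *LA* (log2 1.03, SE 0.08, adjusted p = 0.00178). *CALR* rose from 380 and 337 CPM to between 667 and 701 CPM (log2 0.91, SE 0.09, adjusted p = 0.00336), and *HSP90B1* (0.80, SE 0.19, adjusted p = 0.0293) and *HYOU1* (0.77, SE 0.12, adjusted p = 0.00962) rose as well. *HSPA5* rose from 606 and 785 CPM to between 1033.5 and 1075.4 CPM (log2 0.58, SE 0.13, adjusted p = 0.0265), a call that was lost without sgScr replicate 1, 2 or 3 (adjusted p 0.107 to 0.127). The calls of *HSP90B1* and *HYOU1* were lost in the same fits, and those of *PDIA4* and *CALR* held. *SDF2L1* (0.41), *CRELD2* (0.35), *DNAJB9* (-0.99), *HERPUD1* (-0.95) and *EDEM1* (-0.02) were not called.

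*DDIT4*, which encodes the stress-induced mTORC1 inhibitor REDD1, had the largest change among the called genes, from 67.3 and 93.0 CPM in *LA* to between 223 and 240 CPM in sgScr (log2 1.49, SE 0.15, adjusted p = 0.00354). *CEBPB* rose (0.91, SE 0.18, adjusted p = 0.0208) and *ATF5* fell (-0.50, SE 0.12, adjusted p = 0.0297), and both calls were lost whichever sgScr library was left out (adjusted p 0.0861 to 0.102 and 0.108 to 0.137). *CHAC1* (-1.64, adjusted p = 0.233), *NUPR1* (-1.04, adjusted p = 0.258) and *TRIB3* (-0.54) were not called. *ATF4* (0.16, SE 0.30, adjusted p = 0.715), *XBP1* (0.14, SE 0.08, adjusted p = 0.256) and *DDIT3* (-0.50, SE 0.50, adjusted p = 0.498) were not called. *ATF4* was at 0.83 without *LA* replicate 2 and at -0.27 without *LA* replicate 1. Each of these fits leaves a lone *LA* library, which is taken to vary like the sgScr libraries. Nothing is therefore read from their number of calls. Without sgScr replicate 1, 2 or 3, 4 genes were called higher and 0 lower by edgeR's test, with an unadjusted p under 0.05 for 2, 2 and 1 lower genes. The 4 were *ASNS*, *PDIA4*, *CALR* and *DDIT4* each time.

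What a guide against *FOS* changes in fusion cells was asked with sg*FOS* against sgScr. Here 6 genes rose and 12 fell (52.9%), where 22.7% of 14196 genes were called, 12.2% higher and 10.5% lower. The 34 genes are more abundant than most (median of mean counts 1227.6, against 449.2 over the genes tested), and where the mean count was 500 or more the calls came to 15 of 25 of these genes (60.0%) and 32.6% of all genes. The differences were small. Past a log2 fold change of 0.5 there were 2 higher genes and 1 lower gene, *SESN2*, *NUPR1* and *PPP1R15A*, where 2.88% and 1.2% of all genes were called in these directions. The median over the 34 genes was -0.05, against 0.00 over all genes.

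Of the 6 enzymes, 4 fell in sg*FOS*, and the other 2 had unadjusted p of 0.736 and 0.855. *ASNS* was at 81.3 and 83.0 CPM in sg*FOS*, against 105 to 109 CPM in sgScr (log2 -0.38, SE 0.04, adjusted p = 1.65e-08). *PHGDH* was at 30.9 and 31.4 CPM, against 38.0 to 41.2 CPM (-0.33, SE 0.07, adjusted p = 0.00032). *MTHFD2* (-0.19, SE 0.04, adjusted p = 0.000121) and *PSAT1* (-0.12, SE 0.04, adjusted p = 0.0117) fell by less, and *SHMT2* (-0.01) and *PSPH* (0.02) were not called. Both transporters rose, *SLC7A5* from between 2294.5 and 2408.6 CPM to 2758.4 and 2745.7 CPM (0.24, SE 0.03, adjusted p = 6.2e-07) and *SLC3A2* by 0.14 (SE 0.04, adjusted p = 0.0027). The difference between enzymes and transporters was not tested.

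Among the stress targets, *SESN2* rose the most of the 34 genes, from between 10.9 and 11.8 CPM to 19.5 and 18.8 CPM (log2 0.76, SE 0.10, adjusted p = 2.47e-07). *PPP1R15A* fell the most, from between 80.2 and 89.7 CPM to 57.7 and 63.0 CPM (-0.50, SE 0.05, adjusted p = 1.68e-09), and stayed above both control libraries. *DDIT4* fell by 0.18 in log2 (SE 0.04, adjusted p = 0.000565). *CHAC1* (0.19), *TRIB3* (-0.03) and *STC2* (0.10) were not called.

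Of the transcription factors, *NUPR1* (0.51, SE 0.15, adjusted p = 0.0101) and *ATF5* (0.31, SE 0.08, adjusted p = 0.00558) rose, and *CEBPB* (-0.23, SE 0.05, adjusted p = 0.000956), *CEBPG* (-0.18) and *XBP1* (-0.19, SE 0.05, adjusted p = 0.00449) fell. *ATF4* was at 245 and 239 CPM in sg*FOS* and 247 to 252 CPM in sgScr (-0.04, SE 0.04, adjusted p = 0.445), and *DDIT3* had -0.26 (SE 0.17, adjusted p = 0.292). In the ER lumen *CALR* rose (0.11) and *PDIA4* (-0.15), *EDEM1* (-0.12) and *HSP90B1* (-0.09) fell, while *HSPA5* had -0.05 (SE 0.03, adjusted p = 0.272). None of the sensors passed the test, at -0.20 for *EIF2AK3* (unadjusted p = 0.021), -0.09 for *ERN1* and -0.08 for *ATF6*.

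In a fit of all 9 libraries, whose estimate of the spread includes the control and *LA* pairs, edgeR's test called 0 of the 34 genes in sg*FOS* against sgScr, with an unadjusted p under 0.05 for 1 higher and 1 lower gene. DESeq2 on the 5 libraries called 4 higher and 11 lower, leaving out *NUPR1* (adjusted p = 0.0851) and *ATF5* (0.0585) among those that rose. After correction for length and GC content, *PSAT1* (adjusted p = 0.128), *HSP90B1* (0.319) and *EDEM1* (0.0877) were no longer called. Without sg*FOS* replicate 2, which leaves a lone sg*FOS* library that is taken to vary like the sgScr libraries, 3 genes were called higher and 6 lower.

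**Figure D5:**
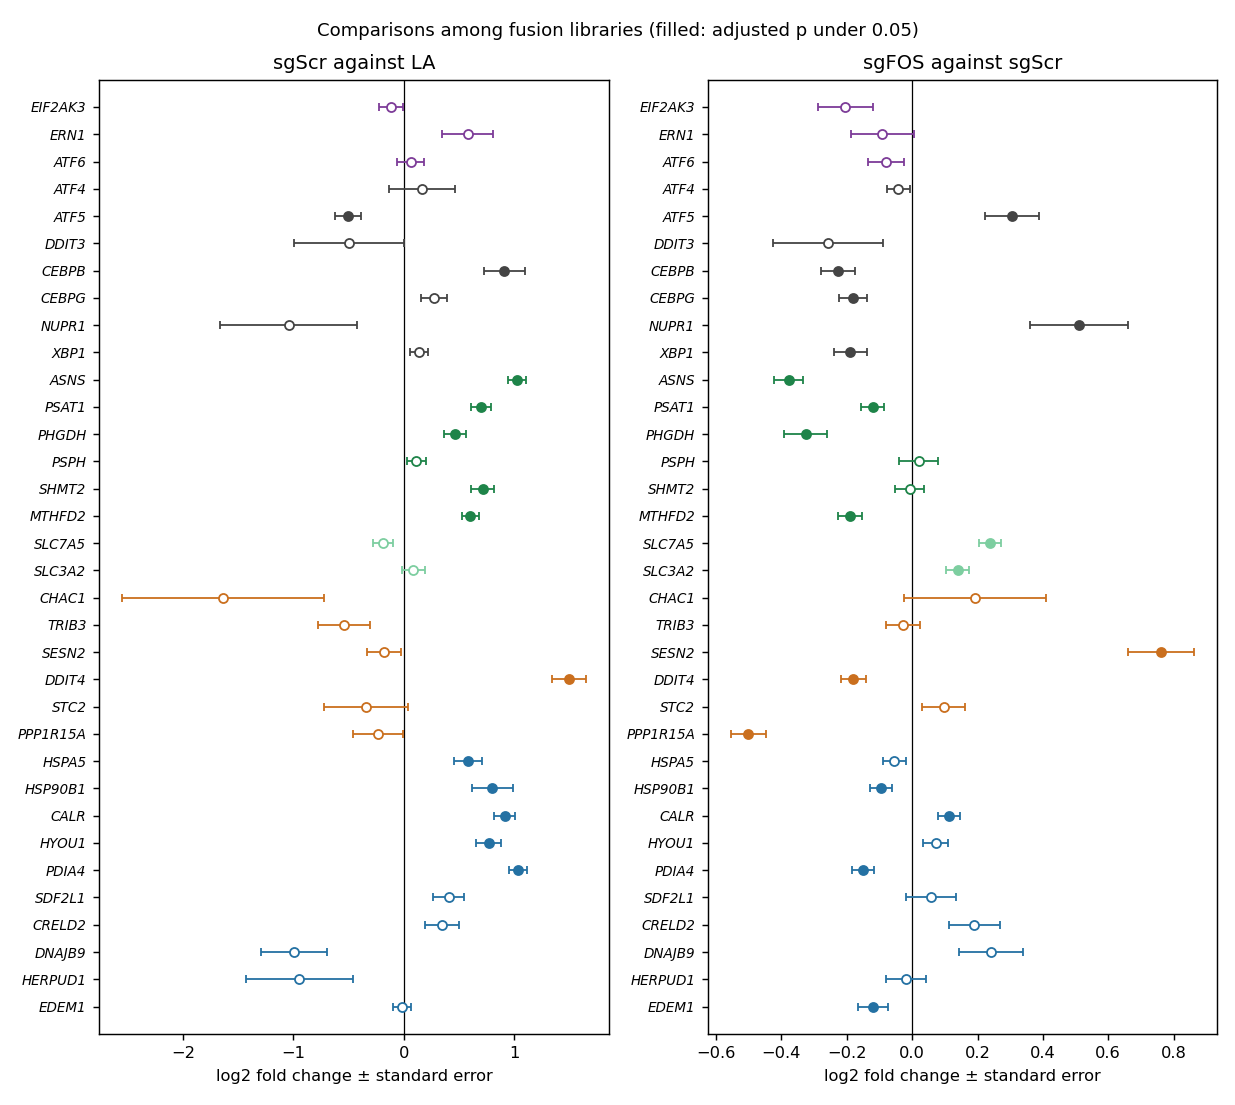
The log2 fold change of each gene (points, with bars of 1 standard error) in sgScr against *LA* (left) and sg*FOS* against sgScr (right, on a narrower axis). Filled points have an adjusted p under 0.05, and in the right panel they lie between -0.50 for *PPP1R15A* and 0.76 for *SESN2*.

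Other genes of the same pathways were counted from 3 further lists, and each count is given beside the share of all genes called in the same direction. Of 35 other ATF4 and amino acid response genes tested, 7 rose and 1 fell in *LA* against control, where 9.57% and 9.94% of all genes did. *VLDLR*, a lipoprotein receptor (2.63, SE 0.49, adjusted p = 0.00144), and *ATF3*, a stress-induced bZIP repressor (2.15, SE 0.54, adjusted p = 0.00775), rose the most, and *EIF4EBP1*, an inhibitor of cap-dependent translation, fell (-1.89, adjusted p = 0.00512, and -0.29 after correction). In sgScr against *LA* 7 rose and 2 fell (10.6% and 12.3% of all genes), led by *BBC3* (1.10) and *XPOT* (0.59) and by *VLDLR* (-1.96) and *ATF3* (-1.01). In sgScr against control 12 rose and 2 fell (19.8% and 21.7% of all genes), led by *ALDH1L2* (2.39) and *SLC7A1* (1.49) and by *EIF4EBP1* (-1.24) and *GDF15* (-0.89). In sg*FOS* against sgScr 4 rose and 7 fell (12.2% and 10.5% of all genes), led by *GADD45A* (0.70) and *BBC3* (0.34) and by *SLC43A1* (-0.55) and *SLC38A2* (-0.31).

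Of the 20 aminoacyl-tRNA synthetases, which charge tRNAs and include ATF4 targets, the only call in *LA* against control was *KARS*, which fell (-1.17, adjusted p = 0.0494). Of all genes, 9.57% rose and 9.94% fell there. All 5 called in sgScr against *LA* rose (10.6% of all genes), led by *AARS* (0.78) and *YARS* (0.61), and all 7 called in sg*FOS* against sgScr fell (10.5% of all genes), led by *WARS* (-0.19) and *AARS* (-0.16). In sgScr against control 2 rose, *EPRS* (0.90) and *LARS* (0.69), and 3 fell, led by *KARS* (-0.70) and *RARS* (-0.54), which is fewer than the 19.8% and 21.7% of all genes. Their medians in these 4 comparisons were -0.42, 0.28, -0.05 and -0.06.

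Of 58 other genes of ER folding, translocation and degradation, 5 rose and 7 fell in *LA* against control, near the 9.57% and 9.94% of all genes. *EDEM3* (1.73, and 0.94 after correction) and *SEL1L* (1.64, and 0.84 after correction), of ER-associated degradation, rose the most, and *FKBP2* (-2.02) and *SSR4* (-1.79) fell the most, with corrected values of -0.27 and -0.17. In sgScr against *LA* 12 rose, led by *MANF* (1.02) and *MYDGF* (0.83), and 1 fell, *WFS1* (-0.58), beside 10.6% and 12.3% of all genes. In sgScr against control 14 rose and 9 fell of 57 tested (19.8% and 21.7% of all genes), led by *EDEM3* (1.76) and *SEL1L* (1.74) and by *SEC61G* (-1.62) and *SSR4* (-1.62). In sg*FOS* against sgScr 6 rose and 5 fell of 57 tested (12.2% and 10.5% of all genes), with no log2 fold change beyond 0.27 in size, and *WFS1* (0.26), *SSR4* (0.23), *HSPA13* (-0.27) and *SEL1L* (-0.20) led.

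Levels of different genes were compared as CPM per kilobase of transcript. In control *SLC3A2* (520), *HSP90B1* (310) and *SLC7A5* (302) were the most abundant of the 34 genes, and *EIF2AK3* (1.73), *CHAC1* (1.53) and *ERN1* (0.223) the least. In sgScr *SLC7A5* came first (513), and *NUPR1* was the lowest (1.09), below *CHAC1* (2.01) and *ERN1* (2.12). Some genes share sequence or position with another gene, and the strand setting of the counting was not given. *DDIT3* overlaps *MARS1* on the opposite strand over 24.3% of its transcript and *MTHFD2* overlaps *SLC4A5* over 30.1%, and 99.5% of the *ASNS* transcript is shared with an annotated noncoding RNA on the same strand. The pseudogenes *ATF4P4* and *PSAT1P3* match 93.9% of the *ATF4* and 50.5% of the *PSAT1* transcript.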

How the data were processed

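RNA-seq counts of 9 A549 libraries (stranded mRNA kit, paired-end reads) were used. The deposited values are whole-number read counts for each gene, left unnormalized by the authors. Per the submitters' processing notes, reads were aligned to hg19 with STAR 2.7.10b and compared with DESeq2 1.26.0. How reads were assigned to genes (counter, annotation, strand) is not given in the sources used here. The 34 genes, the further lists and the comparisons were chosen with earlier results of these data known. Of the 26364 gene names, 28 resemble dates, which stay in the totals and tests and are not named.

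Counts were tested in R 4.3.3 with edgeR 4.0.16 (filterByExpr, TMM, quasi-likelihood test, two-sided, Benjamini-Hochberg adjustment over all genes tested) on the libraries of each comparison alone, and genes with an adjusted p under 0.05 are called. Standard errors were derived from the test statistic. The test takes the spread to be equal in both groups. Lengths, GC content and overlaps came from GENCODE transcripts on GRCh37, for 96.9% to 97.1% of the genes tested. The correction was a loess curve (span 0.5) of each library on length and GC content, entered as an offset. Promoters came from RefSeq (GRCh38.p14). Figures were drawn with Python 3.11.15 and matplotlib 3.10.9. The procedures were run on simulated counts with known changes, as a check of the code. A pass was required only of the uncorrected fit on counts without a length trend.

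Each of the 34 genes is accounted for. Full values are given for called genes (the 5 largest in each direction where more than 10 are called) and for *ATF4*, *DDIT3*, *ASNS*, *XBP1* and *HSPA5*. From the further lists the 2 largest changes in each direction are named, among the called genes whose mean count reached 50. Alternatives were DESeq2 1.42.0, its size factors, library size alone, upper quartile scaling, no filter, a stricter filter at a mean count of 50, a fit of all 9 libraries, a replicate block, the length and GC correction, both together, other thresholds, and leaving out each library. A pairing of replicates with crossed numbers was added after seeing the data. The *FOS* and *ALK* levels check the labels only, and the study's other experiments were not analysed here.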

Additional observations from a re-analysis of the deposited data

How the results depend on the processing

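Counts and medians over the 34 genes, and the values of the genes named by rule in each comparison, were recomputed under each alternative. For the named genes 579 of 705 values kept their direction and their side of the threshold, as did 169 of 256 counts of calls and medians; the cause of the changes was not tested unless a sentence names it. Depth limits *ERN1* and *CHAC1* most, with 28 and 29 counts and 32 and 44 counts in control. Leaving out a library leaves some arms with a lone library, which is taken to vary like the other group. The shares of all genes called under the alternatives are not given, so nothing is read from the size of a count below.

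In *LA* against control, calls were 8 higher and 7 lower with all 9 libraries in one fit. They were 6 higher and 0 lower with library size alone, where the median of all genes was 0.33. The threshold used in the study (unadjusted p under 0.05 with a log2 fold change over 0.5) gave 8 and 6. Here and below it was applied to edgeR's p-values, whereas the study used DESeq2. The replicate block gave 3 higher and 0 lower, the length and GC correction 0 lower, and both together 7 higher; edgeR's test had 3 lower genes with an unadjusted p under 0.05 in each of the first 2. Leaving out single libraries gave 0 to 5 higher and 0 to 7 lower. Over the 8 amino acid genes the median was -0.347 by DESeq2, -0.351 with its size factors, -0.037 with library size alone, -0.297 with all 9 libraries, -0.149 with the correction, -0.156 with the correction and the block, and -0.374 to -0.318 leaving out single libraries. For the 10 ER genes it was 0.341 with library size alone, 0.208 with the correction, 0.21 with the correction and the block, and -0.133 to 0.114 leaving out single libraries. Under the correction without and with the replicate block, values of the named genes changed sign for *SDF2L1* (0.165 and 0.167), *ATF4* (0.442 and 0.349), *DDIT3* (0.899 and 0.632), *XBP1* (0.261 and 0.284) and *HSPA5* (-0.13 and -0.14). With library size alone *DDIT3* was at 0.04 and *XBP1* at 0.032. Leaving out single libraries, *ATF4* ranged from -0.997 to 0.06 and *DDIT3* from -1.511 to 0.341.

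In sg*FOS* against sgScr, 0 higher and 0 lower genes were called with all 9 libraries in one fit, 2 and 1 at the threshold used in the study and also past an absolute log2 fold change of 0.5, and 3 higher with the correction and the replicate block. Leaving out single libraries gave 3 to 7 higher and 6 to 12 lower. The median of the ER genes was -0.016 with the correction and -0.012 to 0.029 leaving out single libraries.

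In sgScr against *LA*, 2 lower genes were called by DESeq2, with no filter and at the threshold used in the study, and 0 with all 9 libraries, with the replicate block and with the block and the correction (3, 1 and 2 lower at an unadjusted p under 0.05). The block gave 7 higher. Leaving out single libraries gave 4 to 23 higher and 0 to 12 lower. For the amino acid genes the median was 0.484 with library size alone and 0.563 with no filter. *ATF4* ranged from -0.271 to 0.833 and *DDIT3* from -1.129 to 0.771 leaving out single libraries.

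In sgScr against control, 6 higher genes and 1 lower gene were called with the replicate block, 20 and 1 with the correction, 1 lower with both, 4 lower with all 9 libraries and 5 lower at the threshold used in the study. Leaving out single libraries gave 0 to 19 higher and 0 to 11 lower. The median of the amino acid genes was 0.095 by DESeq2, 0.072 with its size factors, 0.29 with library size alone (median of all genes 0.20), 0.044 with upper quartile scaling, 0.134 with no filter, 0.086 at a mean of 50 counts, 0.103 with all 9 libraries, 0.332 with the correction, 0.305 with the correction and the block, and 0.11 to 0.171 leaving out single libraries. For the ER genes it was 0.662 with library size alone, 0.554 with the block and 0.462 to 0.644 leaving out single libraries. Under the correction without and with the replicate block, *ATF4* (0.52 and 0.537), *DDIT3* (0.189 and 0.263) and *XBP1* (0.329 and 0.34) changed sign among the named genes. Of the others, the correction alone also turned *ATF6* (0.79 to -0.04), *SDF2L1* (-1.05 to 0.54, adjusted p = 0.0144), *CRELD2* (-0.55 to 0.46, adjusted p = 0.0415), *CEBPB* (-0.02 to 1.05, adjusted p = 0.00153), *TRIB3* (-0.03 to 0.52, adjusted p = 0.0388), *SHMT2* (-0.03 to 0.39, adjusted p = 0.0171), *SLC3A2* (-0.32 to 0.28) and *CEBPG* (0.35 to -0.05). With library size alone *ATF4* was at 0.058 and *XBP1* at 0.119, and leaving out single libraries they ranged from -0.318 to 0.046 and from -0.247 to 0.185.

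The labels do not say what a replicate number stands for. Deviations of same-numbered libraries from their group means correlated at -0.248 in *LA* against control and between -0.131 and 0.042 in the other comparisons, so that the replicate block rests on a shared number alone. Under it *HSPA5* was not called in sgScr against *LA* (adjusted p = 0.132, and 0.0879 with the correction) or in sgScr against control (0.142 and 0.159), and under the block with the correction *ASNS* was called lower in *LA* against control (0.0171). A block with crossed numbers in *LA* against control, added after seeing the data, called 5 higher and 4 lower, *ASNS* among them (adjusted p = 0.0322).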
